A study of Mus musculus with 2 samples.

Results

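The 10 genes *Hdac1* to *Hdac10*, the zinc-dependent histone deacetylases of classes I and II, were taken by symbol from the expression tables of mouse optic nerve, among 23951 gene symbols present in both libraries. The control library came from mice labelled Tcf7l2 c/+; OLig1-cre and the mutant library, called *Tcf7l2* cKO here, from mice labelled Tcf7l2 c/c; OLig1-cre, both at P12, when the nerve is being myelinated. The labels do not define c, which is read here as the floxed allele that the study describes, whose excision removes the DNA-binding HMG box in frame. Cre is driven by *Olig1*, a gene of the oligodendrocyte (OL) lineage, and on this reading the controls also carried Cre and 1 floxed allele. There was 1 library per genotype and the number of animals in each is not given in the sources used here, so no difference below has a replicate check and none was tested. Since the tissue was bulk nerve, fewer cells of a type and less RNA per cell cannot be told apart.

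Histone deacetylases remove acetyl groups from lysines of histones and other proteins. Class I enzymes (*Hdac1*, *Hdac2*, *Hdac3* and *Hdac8*) are mainly nuclear and, apart from *Hdac8*, act as the catalytic subunits of corepressor complexes. Class IIa enzymes (*Hdac4*, *Hdac5*, *Hdac7* and *Hdac9*) have little catalytic activity of their own, shuttle between nucleus and cytoplasm, and bind Mef2 transcription factors, while the class IIb enzymes (*Hdac6* and *Hdac10*) work largely in the cytoplasm. In the OL lineage, Hdac1 and Hdac2 are needed together for differentiation and compete with β-catenin for binding to Tcf7l2. The question put to the data was therefore whether transcript levels of the class I genes, or of the other classes, differed when Tcf7l2 lost its HMG box.

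The level of the family was nearly the same in both libraries. Summed over the 10 genes, it was 178.5 FPKM (fragments scaled by transcript length and by how many fragments were mapped) in the control and 182.7 FPKM in the cKO. All 10 genes had a row in each table. *Hdac7* was listed at 0 in both, and the other 9 passed the filter of 1 FPKM or more in at least 1 library. Log2 ratios of cKO to control, computed after 0.1 FPKM was added to each value, which understates the change of low genes, ran from −0.21 for *Hdac2* to 0.72 for *Hdac9*, with a median of 0.072 beside a median of 0.047 over all 14199 genes tested. Of the 9 genes, 1 (*Hdac9*) was more than 1.5-fold higher, beside 15.4% of all genes tested, and 0 were lower by as much, compared with 8.52%. The Cufflinks intervals of the libraries, which cover the uncertainty of each estimate within a library and not variation between animals, did not overlap for 2 of the 9 (*Hdac2* and *Hdac9*), compared with 52.4% of all genes. For 7 of the 9, the log2 ratio lay within 0.25 of 0, which held for 44.4% of all genes.

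**Figure D1:**
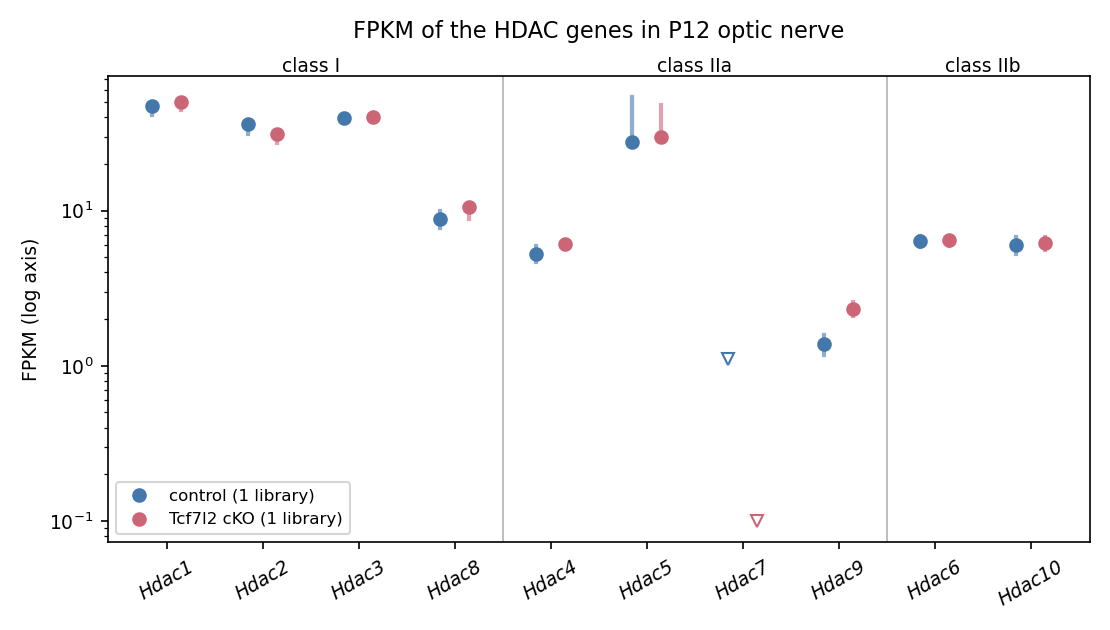
FPKM of each HDAC gene (log axis) in the control library and the *Tcf7l2* cKO library, 1 library per genotype. Points are the FPKM, vertical lines the Cufflinks interval of that library, and open triangles the upper bound of *Hdac7*, which is listed at 0 in both. From *Hdac1* near 50 FPKM to *Hdac9* below 3 FPKM, both libraries give the genes in the same order.

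The order of levels was the same in both libraries, with *Hdac1* highest, then *Hdac3*, *Hdac2*, *Hdac5*, *Hdac8*, *Hdac6*, *Hdac10*, *Hdac4*, *Hdac9* and *Hdac7*. Among neighbours in this order, *Hdac2* and *Hdac5*, *Hdac6* and *Hdac10*, and *Hdac10* and *Hdac4* had overlapping intervals in both libraries, so their order is not resolved. *Hdac1* and *Hdac3* overlapped in the control but not in the cKO. *Hdac1* exceeded 88.0% of tested genes in the control and 88.4% in the cKO, whereas *Hdac9* exceeded 8.28% and 13.5%.

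Class I held most of the HDAC transcripts. *Hdac1*, a catalytic subunit of the NuRD, Sin3 and CoREST complexes, lies in the files at chr4:129193348-129219890, in mm9, the build in the submitters' processing notes. It stood at 47.5 FPKM in the control against 49.9 FPKM in the cKO, a log2 ratio of 0.072. Its intervals of 41.1 to 45.8 and 44.4 to 48.8 overlapped, and both FPKM values lay above their own interval. The next row, *Marcksl1*, ends 122 bases from that of *Hdac1*. *Hdac2*, the paralogue that sits in the same complexes (chr10:36694350-36721694), was the member with the lower value in the cKO, at 36.1 FPKM in the control against 31.3 FPKM in the cKO, a log2 ratio of −0.21 that exceeded that of 26.3% of all genes tested. Its intervals did not overlap (31.2 to 35.3 and 27.1 to 30.2), and here too both FPKM values lay above them. With the middle of each interval in place of the FPKM, a setting chosen after seeing the data, the log2 ratios were 0.10 for *Hdac1* and −0.21 for *Hdac2*.

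Because the *Hdac1* and *Hdac2* proteins share their complexes, the ratio of their transcripts within each library was also taken, after the values had been seen. *Hdac1* was 1.31 times *Hdac2* in the control, with 1.17 and 1.47 as the extremes that the interval bounds allow, and 1.597 times *Hdac2* in the cKO, with extremes of 1.471 and 1.80. The control range ended at 1.468, so the ranges did not overlap, by a narrow margin. This ratio does not depend on how the libraries are scaled. Their sum was 83.6 FPKM in the control against 81.2 FPKM in the cKO.

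The upstream sequence of *Hdac2* is shown because it was the class I gene whose intervals did not overlap. It comes from RefSeq on GRCm38.p6 (chr10:36974294-36974543, plus strand, the 250 bases before the transcription start), a build other than that of the files, and it was searched on both strands for TCAAAG, the core of the TCF/LEF motif, ACAAAG, a Sox motif, and TCCTGCNA, the binding site of Kaiso. No letters are in capitals since none of these was found in it.
Hdac2 upstream: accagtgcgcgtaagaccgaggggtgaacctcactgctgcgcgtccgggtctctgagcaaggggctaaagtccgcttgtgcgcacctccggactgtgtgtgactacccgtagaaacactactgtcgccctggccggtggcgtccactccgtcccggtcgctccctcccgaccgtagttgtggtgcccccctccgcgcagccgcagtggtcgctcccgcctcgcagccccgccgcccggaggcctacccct

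*Hdac3*, the catalytic subunit of the NCoR complex, stood at 39.4 FPKM in the control against 40.2 FPKM in the cKO, a log2 ratio of 0.031, with overlapping intervals of 37.1 to 41.7 and 38.1 to 42.4. *Hdac8*, which deacetylates the cohesin subunit Smc3 and lies on the X chromosome (chrX:99479979-99700487 in the control table), had 8.82 FPKM in the control against 10.5 FPKM in the cKO (log2 ratio 0.25, overlapping intervals of 7.70 to 9.94 and 8.80 to 10.7). Neither gene was separated between the libraries by its intervals.

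In class IIa, the 3 genes with a measured level had a higher FPKM in the cKO as deposited, which held for *Hdac9* alone once the libraries were given equal sums over all rows. *Hdac9*, which binds and represses Mef2 factors (chr12:34732447-35601767), was the lowest member with a level above 0, at 1.38 FPKM in the control (interval 1.18 to 1.58) and 2.33 FPKM in the cKO (interval 2.09 to 2.57). The log2 ratio was 0.72, a fold of 1.64, and the bounds allow log2 ratios between 0.38 and 1.06. Such calls were more frequent among low genes than among all genes, as 26.9% of the 2221 tested genes with a mean of 1 to 3 FPKM were more than 1.5-fold higher. *Hdac9* no longer passed this cutoff with 1 FPKM added to each value (log2 ratio 0.48). Since *Hdac9* was the called member, its upstream sequence is shown, from RefSeq on GRCm38.p6 (chr12:34917096-34917345, minus strand, the 250 bases before the more upstream of its listed starts), with matches to ACAAAG on either strand in capitals.
Hdac9 upstream: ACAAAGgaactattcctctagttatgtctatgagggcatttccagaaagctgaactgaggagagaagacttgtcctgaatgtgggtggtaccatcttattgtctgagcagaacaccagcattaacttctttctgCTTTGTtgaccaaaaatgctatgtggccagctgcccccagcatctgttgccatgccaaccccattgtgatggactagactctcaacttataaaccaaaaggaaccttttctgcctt
Relative to the start, the matches begin at −250 and, on the opposite strand, at −116, and the window of the other listed start held none. Over 11 windows of 300 bases for 7 of the members (*Hdac1*, *Hdac3* and *Hdac10* had no entry), 2 held ACAAAG, the other being 1 of the 4 *Hdac7* windows, compared with 18.7% of the 32851 promoter windows in the table. TCAAAG and TCCTGCNA were in 0 of the 11, compared with 16.0% and 4.96% of all windows. The member windows had a median GC content of 60.7%, beside 52.7% over all windows, and ranged from 44.0% in the *Hdac9* window above to 73.7% in 1 of those of *Hdac7*. A match of letters is no evidence of binding.

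**Figure D2:**
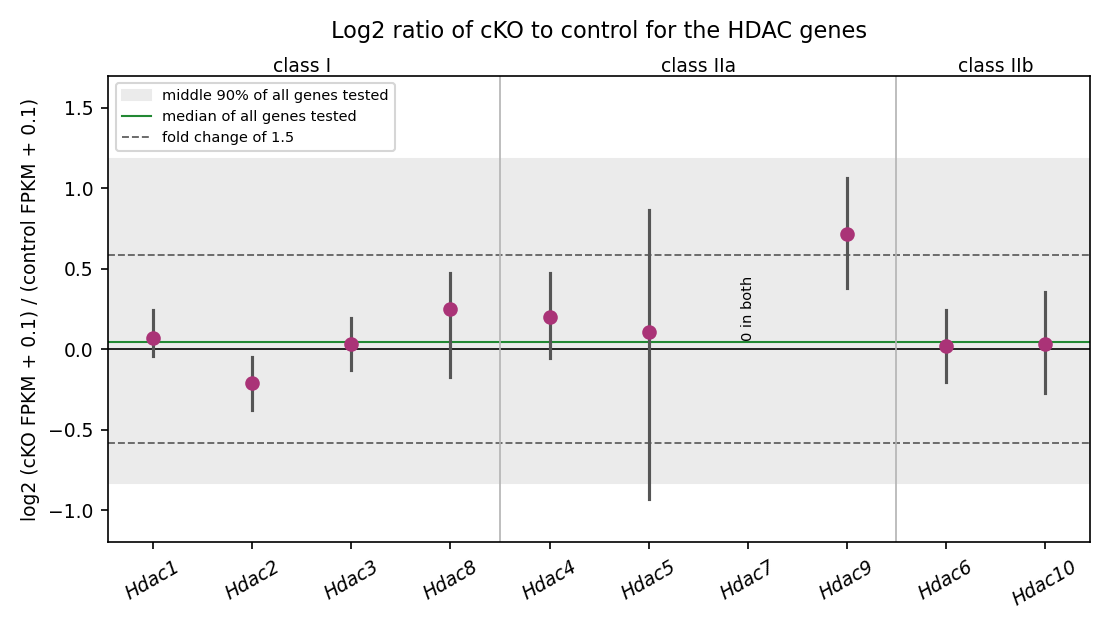
Log2 ratio of cKO to control FPKM for each HDAC gene, after 0.1 FPKM was added. Vertical lines run between the extremes that the Cufflinks bounds of both libraries allow, dashed lines mark a fold change of 1.5, the green line is the median of all 14199 genes tested and the grey band their middle 90%. *Hdac9*, at 0.72, is the 1 gene beyond a dashed line, and *Hdac2*, at −0.21, the 1 gene whose line lies below 0.

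*Hdac5*, which like *Hdac4* is exported from the nucleus when phosphorylated, was the main class IIa transcript, at 27.7 FPKM in the control against 29.8 FPKM in the cKO (log2 ratio 0.11). Its row (chr11:102056719-102091486 in the control table) was merged with the small RNA *Mir8101*, and its intervals were wide and lopsided, 26.3 to 54.0 in the control and 28.2 to 48.1 in the cKO. With the middle of the interval in place of the FPKM, the direction turned, to a log2 ratio of −0.07. *Hdac4* (chr1:93828482-94090662 in the control table) had 5.29 FPKM in the control against 6.10 FPKM in the cKO, a log2 ratio of 0.20, with intervals of 4.66 to 5.92 and 5.69 to 6.50 that overlapped.

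*Hdac7*, known for its role in endothelial cells and thymocytes (chr15:97623095-97674933), was listed at exactly 0 FPKM in both libraries, with upper bounds of 1.103 in the control and 0.0996 in the cKO. Whether this 0 is a failed estimate was not tested. Its row shares 29 bases with that of *Slc48a1*, at 107.0 FPKM in the control against 96.0 FPKM in the cKO. The 6 endothelial markers summed to 147.2 FPKM in the control against 121.4 FPKM in the cKO, which gives no level for *Hdac7*.

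The class IIb genes gave almost equal values. *Hdac6*, the cytoplasmic deacetylase of α-tubulin (chrX:7507248-7525015), had 6.34 FPKM in the control against 6.42 FPKM in the cKO, with intervals of 5.83 to 6.86 and 5.94 to 6.91 and a log2 ratio of 0.018. *Hdac10*, which deacetylates polyamines (chr15:88953733-88959130), had 6.02 FPKM and 6.17 FPKM, with intervals of 5.28 to 6.74 and 5.57 to 6.78 and a log2 ratio of 0.035. Relative to the median of all genes, the values of *Hdac3*, *Hdac6* and *Hdac10* fell on the other side of 0, at −0.015, −0.029 and −0.011. *Hdac6* and *Hdac8* are X-linked, and the libraries differed in sex-linked transcripts. *Xist* was at 21.9 FPKM in the control against 38.2 FPKM in the cKO. By more than the cutoff, 4 of 4 Y-linked genes were lower in the cKO, beside 8.52% of all genes, among them *Eif2s3y* (19.9 and 7.56 FPKM). The part of this difference in the values of *Hdac6* and *Hdac8* was not tested.

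Compared by class, the summed level of class I was 131.7 FPKM in the control against 131.9 FPKM in the cKO, a log2 ratio of 0.0019. Class IIa summed to 34.4 and 38.2 FPKM (log2 ratio 0.15), and class IIb to 12.4 and 12.6 FPKM (log2 ratio 0.027). The log2 ratio of class IIa exceeded that of class I by 0.15, but the bounds allow differences between −0.97 and 0.995, a range set mostly by the wide interval of *Hdac5*, so that a difference between the classes was not detectable. With the middle of each interval in place of the FPKM, the log2 ratio of class IIa was −0.022, on the other side of 0. With all rows of each library rescaled to a common sum, the log2 ratios were −0.67, −0.51 and −0.64 for classes I, IIa and IIb, beside a shift of the median of all genes to −0.61, so that only the values relative to other genes can be read. Class I made up 73.8% of the summed level in the control and 72.2% in the cKO, class IIa 19.3% and 20.9%, and class IIb 6.93% and 6.89%. With the middle of each interval, the share of class I was 67.7% in the control and 67.9% in the cKO, so the lower share in the cKO turned. Within class I, *Hdac2* made up 20.2% of the family in the control and 17.1% in the cKO, and *Hdac1* 26.6% and 27.3%.

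**Figure D3:**
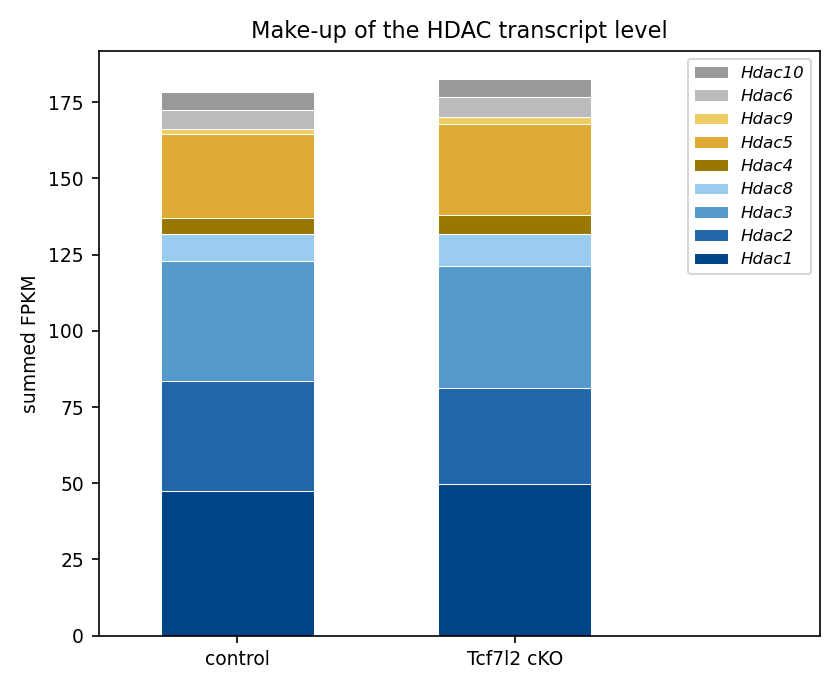
Summed FPKM of the HDAC genes, stacked by gene from class I (blue) through class IIa (yellow) to class IIb (grey), in the control and the *Tcf7l2* cKO library; *Hdac7* adds 0. Class I takes 73.8% of the control bar and 72.2% of the cKO bar.

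*Hdac11*, the class IV enzyme, is not a member of classes I and II and was set beside them. It had 21.9 FPKM in the control (interval 19.3 to 22.4) and 16.1 FPKM in the cKO (interval 14.1 to 16.2), with a log2 ratio of −0.45 that did not pass the cutoff. Its ratio was lower than that of each of the 9 measured members. Mature OL markers were lower in the same library, with a summed level of 31707 FPKM in the control against 18155 FPKM in the cKO. The part of this in the values of *Hdac11* and *Hdac2* was not tested.

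Of 36 subunits of the NuRD, Sin3, CoREST and NCoR complexes, 1 was more than 1.5-fold higher and 0 were lower, beside 15.4% and 8.52% of all genes. The median log2 ratio was 0.021, beside 0.047 over all genes, and 19 of the 36 were above 0, beside 54.6% of all genes. The intervals did not overlap for 18 of the 36, beside 52.4% of all genes. Of these 18, 14 were higher and 4 lower in the cKO, a split that was not taken over all genes at the same rule. With a fold change above 1.5 required as well, 1930 of all genes tested were higher and 1054 lower without overlap. The split among all genes thus also leaned to higher values, and the 14 and 4 are not read as a trait of these complexes. The called gene was *Sap30*, a Sin3 subunit (3.85 and 6.11 FPKM, log2 ratio 0.65). At the other end was *Arid4b* of the Sin3 complex (11.05 and 8.33 FPKM, log2 ratio −0.40). In NuRD, the extremes were *Rbbp4*, a histone chaperone (log2 ratio −0.34), and *Gatad2a* (0.30), and in CoREST they were *Phf21a* (−0.23) and *Rcor1* (0.25). The NCoR list ran from *Tbl1xr1* (−0.11) to *Gps2* (0.20).

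The 5 genes of the Groucho family, whose Tle members recruit HDACs to TCF factors, had 0 calls in either direction. They are read beside 15.4% of all genes higher and 8.52% lower, and ran from −0.49 for *Tle1* to 0.41 for *Tle3*. The intervals did not overlap for 4 of the 5, *Tle1* and *Tle2* with lower and *Tle3* and *Aes* with higher values in the cKO, compared with 52.4% of all genes. *Tcf7l2* itself was at 17.8 FPKM in the control against 14.6 FPKM in the cKO (log2 ratio −0.28), which checks nothing, since the deletion takes out the HMG exon alone. *Ctnnb1*, which encodes β-catenin, had a log2 ratio of 0.14, and *Zbtb33*, which encodes Kaiso, of −0.42 (5.61 and 4.15 FPKM).

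The partners of class IIa are read beside the same 15.4% and 8.52% of all genes. The 3 tested Mef2 genes ran from 0.10 for *Mef2a* to 0.37 for *Mef2d*, with 0 calls, and *Mef2b* was below the filter. Among 6 genes of 14-3-3 proteins, which hold phosphorylated class IIa enzymes in the cytoplasm, 1 was called, *Ywhaq*, lower in the cKO (408.8 and 257.8 FPKM, log2 ratio −0.66), and *Ywhah* was the highest (0.41). The 6 kinases that phosphorylate class IIa enzymes had 0 calls and ran from −0.58 for *Prkd3* to 0.47 for *Sik1*. *Prkd3*, at 22.7 FPKM in the control against 15.1 FPKM in the cKO with intervals that did not overlap, lay just short of the cutoff and passed it with 0.01 FPKM added or relative to the median of all genes.

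**Figure D4:**
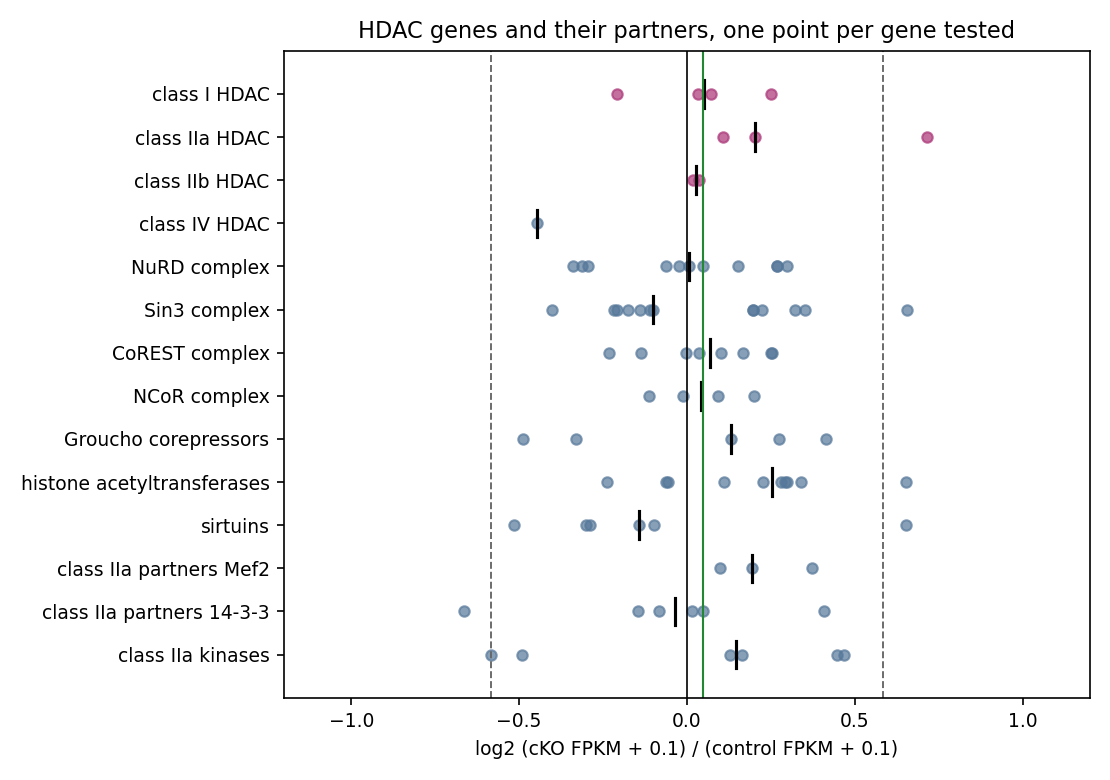
Log2 ratio of cKO to control FPKM for each tested gene of the HDAC classes and of the partner lists, 1 point per gene, with the median of each list as a black bar, the median of all genes as a green line and a fold change of 1.5 as dashed lines. Most points lie between the dashed lines, with *Hdac9*, *Sap30*, *Sirt4* and *Kat6b* beyond the right one and *Ywhaq* beyond the left one; *Sirt3*, listed at 0 in the control, is off the axis.

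The libraries differed in their cellular markers, none of which was listed at 0. Calls in each list below are read beside 15.4% of all genes higher and 8.52% lower. Of 10 mature OL markers, 7 were lower by more than the cutoff, and the 10 ran from *Aspa* (log2 ratio −0.36, not called) to *Mobp* (−2.04), while the 4 precursor markers had 0 calls, a summed level of 110.2 and 107.9 FPKM, and extremes in *Cspg4* (−0.30) and *C1ql1* (0.35). All 4 neuron markers were higher, with a summed level of 20.4 FPKM in the control against 37.5 FPKM in the cKO, from *Tubb3* (0.79) to *Syt1* (1.68), as were all 3 red blood cell markers, from *Alas2* (1.08) to *Hba-a1* (1.36), with sums of 133.1 and 333.7 FPKM. Astrocyte markers had 1 call in 6, *Gja1* (0.68), and summed to 5050 and 5963 FPKM, with *Aqp4* lowest (−0.29). Microglia markers had 0 calls in 6, between *Aif1* (−0.41) and *Tmem119* (0.51), and summed to 164.9 and 207.5 FPKM. The endothelial list gave 1 call each way, *Cdh5* (0.59) and *Ly6c1* (−0.72), with sums of 147.2 and 121.4 FPKM. Among 4 pericyte and smooth muscle markers, *Rgs5* was lower (−0.64) and *Kcnj8* highest (0.35), with sums of 100.9 and 86.2 FPKM. Meningeal fibroblast markers were above 0 in 5 of 5, from *Col3a1* (0.09) to *Dcn* (0.78), the 1 called, with sums of 1046 and 1376 FPKM. Of the skeletal muscle markers, 3 of 5 passed the filter and *Tnnt3* was called (0.61), with *Mylpf* lowest (0.01) and sums of 15.9 and 19.3 FPKM. Dividing cell markers had 0 calls in 4, between *Cdk1* (−0.20) and *Mki67* (0.35), with sums of 36.0 and 36.5 FPKM, and the 3 photoreceptor markers were all below the filter. The neuron and red blood cell lists, in which every tested marker was called higher as *Hdac9* was, stand beside its value, and their part in it was not tested.

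**Figure D5:**
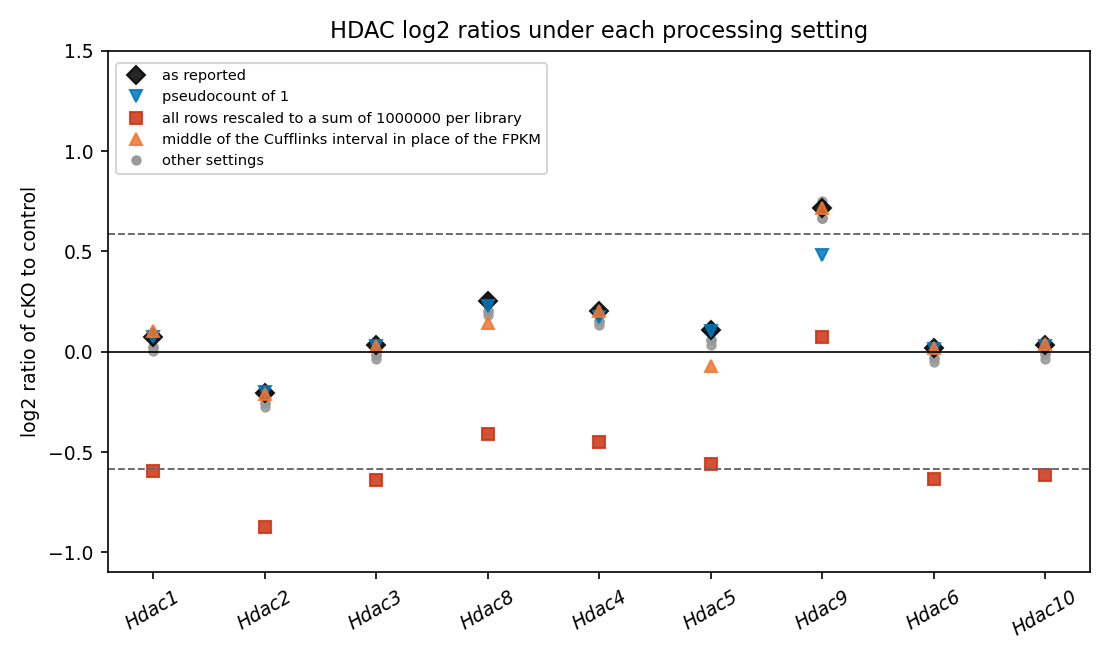
Log2 ratio of cKO to control of each measured HDAC gene as reported (diamonds) and under each alternative processing setting, with a fold change of 1.5 as dashed lines. Rescaling all rows to a sum of 1000000 (squares) lowers every gene and leaves *Hdac9* alone above 0, and 1 FPKM added to each value (downward triangles) moves *Hdac9* below the cutoff.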

How the data were processed

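RNA was taken from P12 optic nerves, 1 library per genotype. Reads were aligned by the authors (TopHat, default settings) and Cufflinks was used to obtain FPKM. The deposited tables hold each row's FPKM with a lower and an upper bound on the same scale and a status. Software versions are not given in the sources used here, and mm9 is the build in the submitters' processing notes. Depth was read from the bounds of unnamed rows under 100 bases, which fall on whole fragments within 0.0074 of a fragment, as 27623000 fragments in the control and 39936000 in the cKO, so that 3 fragments on 1 kb correspond to 0.109 and 0.0751 FPKM. Unnamed rows held 70.7% and 80.7% of the summed FPKM, and 7.26% and 8.64% of named rows with a level above 0 had an FPKM outside its own interval.

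Comma-merged names were split, each symbol receiving the FPKM of its row, and rows were summed per symbol. Symbols with status OK in both libraries and 1 FPKM or more in at least 1 of them were compared (14199) by the log2 ratio after adding 0.1, with the study's fold change cutoff of 1.5. No test was run. Besides the members, the text names *Hdac11*, *Tcf7l2*, *Ctnnb1* and *Zbtb33* and, of each list of partners or markers, the genes past the cutoff and those at its extremes. Outside this rule, it names *Tle2* and *Aes* for their intervals, and *Mef2b*, which was below the filter. *Marcksl1*, *Slc48a1* and *Mir8101* are named for their place next to or in the row of a member. For OL, blood, neuron and Y-linked lists some of the called genes are given as counts alone. A gene of the lists is not reported here. The members and lists were chosen with earlier results of these data known. The calculation was tested on simulated data. Promoter sequences came from RefSeq (GRCm38.p6), with no coordinates passed between builds. The alternatives were other pseudocounts, filters, scalings, row rules and cutoffs. Python 3.11.15, numpy 2.4.6, pandas 2.3.3 and matplotlib 3.10.9 were used.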

Additional observations from a re-analysis of the deposited data

Results flagged for a closer look

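In the cKO table, 5 unnamed rows lay inside the *Hdac7* row, where the control table had 0 unnamed rows. Unnamed rows numbered 16801 in the whole cKO table and 12963 in that of the control, and the cKO library was the deeper. Of the 5, 4 were picked out as signal outside the comparison because their lower bound lay above the cKO upper bound of *Hdac7*, 0.0996. All 4 lower bounds lay below its control upper bound, 1.103. These 4 were at 1.01 FPKM (chr15:97624497-97626157, interval 0.64 to 303.7), 1.51 FPKM (chr15:97635181-97635550, interval 0.34 to 1.62), 0.50 FPKM (chr15:97643234-97643989, interval 0.20 to 0.76) and 0.57 FPKM (chr15:97645954-97646688, interval 0.20 to 0.92), while *Hdac7* itself was listed at 0. The other row (chr15:97654044-97654770) had 0.57 FPKM with an interval of 0.096 to 9719. An unnamed row of 591 bases inside *Hdac8* (chrX:99496720-99497310) had 31.9 FPKM in the cKO, with an interval of 18.9 to 44.3 that lay above the whole interval of *Hdac8*. The control table had no row over that stretch, although it had 12 unnamed rows elsewhere in *Hdac8*. The highest was at 13.5 FPKM, above its own interval of 1.94 to 5.36. The cKO table had 9 unnamed rows inside *Hdac8* in all, among them 1 at 24.4 FPKM, also above its own interval of 0.96 to 3.69.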

How the results depend on the processing

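No paired analysis was possible because there was 1 library per genotype, which also left no replicate to leave out. Giving the full set of rows of each library a sum of 1000000 moved the median log2 ratio of all tested genes to −0.61. It gave 0 of 9 HDAC genes higher and 5 lower, where 640 of all 14199 tested genes were higher and 7398 lower. The family median was −0.60, and the log2 ratios were −0.67 for class I and −0.64 for class IIb. The partner lists then had 1 gene higher and 40 lower, with a median of −0.62, and *Hdac9* alone of the HDAC genes stayed above 0, at 0.08. The called *Hdac9* was also lost (0 genes higher) with a pseudocount of 1 and with a fold change above 2, under which the partner lists had 1 gene higher and 0 lower. Over all 14199 genes, 975 were higher and 522 lower by a fold change above 2. As reported, the partner lists, which here include the sirtuins and the acetyltransferases, had 4 genes higher (*Sap30*, *Sirt3*, *Sirt4* and *Kat6b*) and 1 lower (*Ywhaq*). The higher genes were 1 of 36 tested complex subunits, 2 of 7 sirtuins and 1 of 10 acetyltransferases, and the lower gene was 1 of 6 genes of 14-3-3 proteins. The remaining partner lists had 0 calls. These counts are read beside 15.4% of all genes higher and 8.52% lower. The number lower was 2 with a pseudocount of 0.01, after centring on the median and after scaling to the 75th percentile, each adding *Prkd3*, 2 with no filter on FPKM, which added *Mef2b*, and 3 when named rows were rescaled to a common sum, which added *Prkd3* and *Sirt2*. Over all genes, the number lower was 1210 as reported and 1247, 1389, 1397, 1644 and 1518 under these settings, in that order. Leaving out rows with a merged name, which removes *Hdac5*, moved the share of class I to 87.4% in the control and 86.3% in the cKO. *Hdac2* was below 0 under all 12 alternatives that gave it a value. *Hdac3*, *Hdac6* and *Hdac10* were below 0 in 4 of 12, the scaling alternatives.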

Other observations

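The sirtuins, which form the NAD-dependent class III, had a median log2 ratio of −0.14, beside 0.047 over all genes tested. Of the 7, 2 were higher by more than the cutoff and 0 lower, beside 15.4% and 8.52% of all genes. *Sirt2*, a tubulin deacetylase abundant in myelin, exceeded every zinc-dependent HDAC gene in level, at 1348 FPKM in the control against 943.6 FPKM in the cKO (log2 ratio −0.51). *Sirt3*, the main mitochondrial deacetylase, was listed at 0 in the control, with an upper bound of 0.51, and had 13.3 FPKM in the cKO. A level of 0 in 1 library alone was found for 301 of the 14199 genes tested. Whether the 0 of *Sirt3* is a failed estimate was not tested. *Sirt4* was at 7.94 and 12.6 FPKM (log2 ratio 0.65), with overlapping intervals. The opposing enzymes, 10 histone acetyltransferases, had a median log2 ratio of 0.25, beside the same 0.047 over all genes. Of the 10, 7 were above 0, beside 54.6% of all genes. Of these 10, 1 was called, *Kat6b* (6.69 and 10.6 FPKM, log2 ratio 0.65), beside the same 15.4% higher, and *Kat2b* was lowest (−0.24).

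Both ends of the *Hdac4* row differed between the tables, at 93828482 and 94090662 in the control and at 93826581 and 94045067 in the cKO. In each table an unnamed row followed on the side of the lower coordinate, 130 bases away in the control (2990 bases, 4.53 FPKM, interval 3.86 to 5.02) and 76 bases away in the cKO (1146 bases, 7.34 FPKM, interval 5.44 to 7.63). The *Hdac4* values of the libraries therefore cover unequal stretches, and their part in the log2 ratio of 0.20 was not tested. The row of *Hdac5* also began at unequal places, 102056719 in the control and 102057030 in the cKO. That of *Hdac8* ended at 99700487 and 99700702. The part of these differences in the log2 ratios of *Hdac5* and *Hdac8* was not tested either.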
